A study of Mus musculus with 4 samples.

Results

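Genes that hydroxylate, glycosylate or chaperone newly made collagen chains were examined in mouse tendon, 10 in all: P4ha1, P4ha2, P4ha3, P4hb, Serpinh1, Crtap, Ppib, Fkbp10, P3h2 and Colgalt1. They were taken by symbol from the platform annotation, using probe sets annotated with exactly 1 symbol. Of the 10 genes, 9 were found, each with 1 probe set. No value is given for Fkbp10. The 9 were set against all 22180 genes that had such a probe set, each represented by its probe set of highest mean. The tissue was Achilles and plantaris tendon of untreated wild-type C57Bl/6 mice, 4 months old, with 2 arrays from males and 2 from females. The series was made to describe expression in normal tendon of both sexes. The labels name the cells as tenocytes, but whole tendons were homogenized, so the RNA of muscle, vessel, fat and immune cells in the sample was measured as well. Values are the deposited log2 RMA values, and errors are SDs over arrays unless stated.

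Collagen chains are modified inside the endoplasmic reticulum before they fold into a triple helix. Prolyl 4-hydroxylase, an enzyme built of catalytic alpha subunits (P4ha1, P4ha2 or P4ha3) and the beta subunit P4hb, makes the 4-hydroxyproline that keeps the helix stable at body temperature. A separate complex of P3h1, Crtap and Ppib hydroxylates particular prolines at the neighbouring ring position and also acts as a chaperone, while P3h2 is a prolyl 3-hydroxylase known for its action on basement membrane collagen. Colgalt1 adds galactose to hydroxylysine, and Serpinh1 (also called Hsp47) binds the folded helix and escorts it towards the Golgi. Tendon consists largely of type I collagen and so draws on this machinery.

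The arrays resembled each other, with correlations from 0.946 to 0.970 over probe sets. Of 7 tendon markers, 6 lay above the median of all rows on every array. The matrix genes Fmod, Comp and Thbs4 were between the 98.1st and 98.5th percentile of genes and the tenomodulin gene Tnmd at the 86.6th, but the tendon transcription factors Scx and Mkx were only at the 72.2nd and 58.8th, and Mkx was below that median in female 1. Skeletal muscle genes were among the brightest of all, with Acta1 at a mean of 11.18 and Ckm at 10.22. Of the muscle markers, 7 of 7 gave their lowest value in female 2, beside 5766 of all 22180 genes. The drop was uneven: Acta1 read 11.091 in female 2 and 11.093 in male 1, but Myh4 read 7.35 and 10.61. Macrophage markers were higher in female 2, with a median deviation of 0.79 from the gene means. Of the 4 keratinocyte markers measured, 2 lay above the median of all rows on all arrays. In whole tissue, fewer cells of a type and less RNA per cell cannot be told apart. Nothing in the labels ties each array to its own animal, so a p-value here reflects the spread between arrays, which may be technical.

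Upstream sequences from RefSeq (GRCm38.p6) were matched for 8 of the 10 genes; P3h2 and Fkbp10 had no entry. The 250 bases before the gene start are printed for P4hb and Ppib, the members of highest array signal, and for P4ha2, the member of lowest signal, a choice made after the values were seen. They lie at chr11:120573254-120573503 (minus strand), chr9:66059919-66060168 (plus strand) and chr11:54100674-54100923 (plus strand). Capitals mark CCAAT, the box bound by NF-Y, and ACGTG, the core shared by hypoxia-response elements and several stress elements, on either strand.
P4hb: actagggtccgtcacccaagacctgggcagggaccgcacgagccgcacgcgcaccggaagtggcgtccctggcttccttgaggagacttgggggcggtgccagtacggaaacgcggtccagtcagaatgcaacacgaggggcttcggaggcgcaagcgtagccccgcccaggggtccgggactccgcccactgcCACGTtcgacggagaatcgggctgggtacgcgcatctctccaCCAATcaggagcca
Ppib: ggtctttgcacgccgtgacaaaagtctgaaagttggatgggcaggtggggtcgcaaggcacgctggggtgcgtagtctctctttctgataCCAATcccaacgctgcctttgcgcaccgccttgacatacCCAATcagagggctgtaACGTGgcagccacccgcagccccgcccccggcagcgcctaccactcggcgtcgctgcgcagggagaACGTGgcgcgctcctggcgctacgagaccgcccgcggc
P4ha2: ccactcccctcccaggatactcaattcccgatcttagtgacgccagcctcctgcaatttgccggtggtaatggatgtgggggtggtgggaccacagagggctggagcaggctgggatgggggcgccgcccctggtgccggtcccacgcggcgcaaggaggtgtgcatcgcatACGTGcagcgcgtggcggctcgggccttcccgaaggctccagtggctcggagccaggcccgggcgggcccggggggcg

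Among the 8 genes, CCAAT was found upstream of P4hb (1 match) and Ppib (2 matches), while 33.8% of 32851 windows of that length in the table held it. ACGTG was found in the windows of 5 genes, P4ha1, P4ha2, P4hb, Serpinh1 and Ppib, against 16.6% of all windows. The windows of P4ha1, P4ha3 and Colgalt1 overlapped the annotated span of the same gene, so their bases need not all lie before the gene start. The full endoplasmic reticulum stress element, CCAAT followed after 9 bases by CCACG, was found in 0 of the 8 and in 0.113% of windows, among them that of Hspa5, the gene of the chaperone BiP. A match is a description of letters, not of binding.

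As a group the 9 genes gave signal in the upper part of the array. Their values ran from 2.42 to 6.91. All 36 lay above the median of all rows of the same array, which was between 2.27 and 2.30; 47.6% of genes did so on all 4 arrays. Of the 36, 35 also lay above the higher median of genes, between 2.44 and 2.47, the exception being P4ha3 in female 1; 8 of the 9 genes and 41.7% of all genes exceeded it on all 4 arrays. The median member, Crtap, had a mean at the 80.2nd percentile of genes. P4hb and Ppib ranked above the 90th percentile, and P4ha2 was lowest at the 63.1st. The signal of different probe sets also depends on how each responds, so ranks describe array signal and not numbers of transcripts. Type I collagen is an example: the 2 probe sets of Col1a2 had means of 8.99 and 5.69. Col1a1, with a mean of 6.34, read 2.65 ± 0.099 (SD, n = 4) below the first on the log2 scale, but lay above the second.

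**Figure D1:**
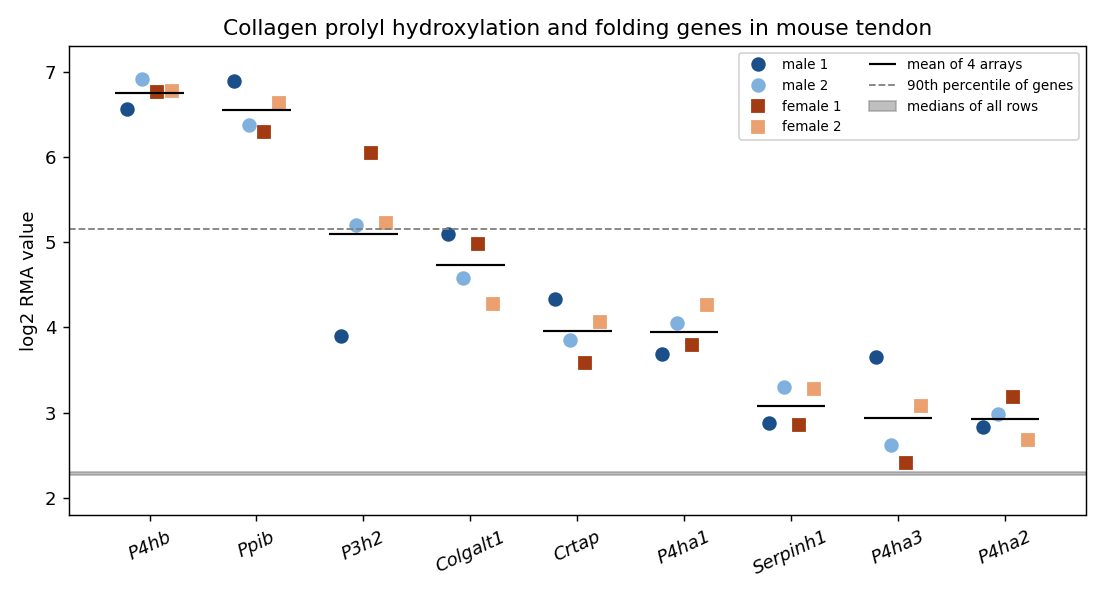
Log2 RMA value (vertical axis) of the 9 measured genes (horizontal axis), 1 point per array, with circles for males and squares for females. Black lines are means of 4 arrays, the grey band spans the medians of all rows and the dashed line is the mean over arrays of the 90th percentile of genes. P4hb and Ppib lie above the dashed line on every array, and P3h2 has the widest spread, from 3.90 to 6.05.

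**Figure D2:**
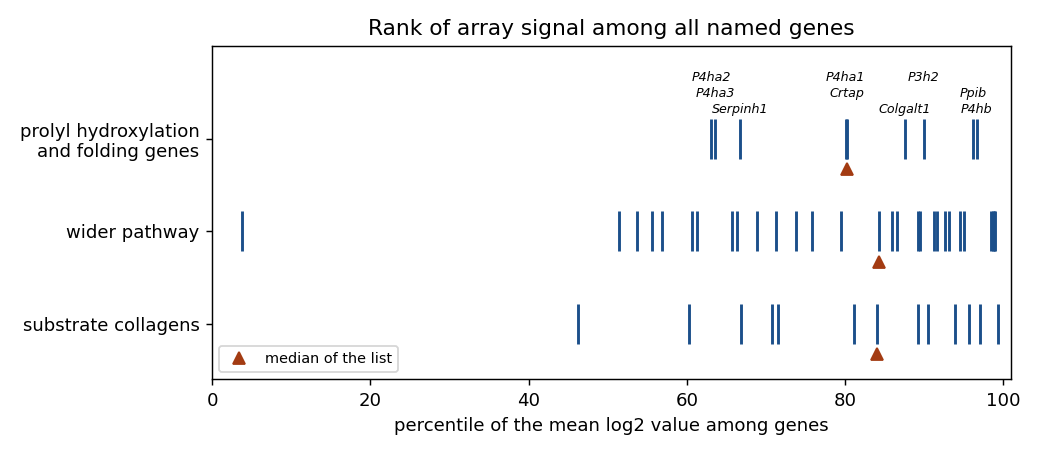
Percentile of each gene's mean log2 value among 22180 genes (horizontal axis), with 1 tick per gene, for the 9 measured genes, 29 genes of the wider pathway and 13 substrate collagens; triangles mark list medians. The medians are 80.2, 84.3 and 84.0.

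The prolyl 4-hydroxylase subunits differed widely in signal. P4hb (probe set 17273165), which encodes the shared beta subunit and is also protein disulfide isomerase, read 6.56 and 6.91 in males 1 and 2 and 6.76 and 6.77 in females 1 and 2. Its mean of 6.75 ± 0.15 (SD, n = 4) placed it 738th of 22180 genes, at the 96.7th percentile. These arrays lay close together, and its SD was the smallest of the 9.

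P4ha1 (probe set 17233536), the most widely expressed catalytic subunit, read 3.69 and 4.05 in males and 3.79 and 4.26 in females. It was at the 80.1st percentile, rank 4418. P4ha2 (probe set 17249611), known from cartilage, bone and endothelium, read 2.84 and 2.99 in males and 3.18 and 2.68 in females, at the 63.1st percentile. P4ha3 (probe set 17480675), the least studied paralog, read 3.65 and 2.62 in males and 2.42 and 3.08 in females, at the 63.6th percentile. P4ha1 was the highest of the 3 catalytic paralogs on all 4 arrays. It exceeded P4ha2 by 1.03 ± 0.41 (SD, n = 4), with a lowest difference of 0.61. Over P4ha3 it stood 1.00 ± 0.65 (SD, n = 4) higher, but by only 0.038 in male 1. P4ha2 and P4ha3 were not separated: P4ha3 was higher on 2 of 4 arrays, and the mean difference of 0.022 was small against its SD of 0.72.

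The genes of prolyl 3-hydroxylation also covered a wide range of signal. Ppib (probe set 17518664), which encodes cyclophilin B, a prolyl isomerase, read 6.89 and 6.38 in males and 6.29 and 6.63 in females, with rank 846 at the 96.2nd percentile. Crtap (probe set 17531877), the non-enzymatic helper of the complex, read 4.33 and 3.86 in males and 3.58 and 4.06 in females. Both genes were highest in male 1 and lowest in female 1. P3h1, the enzyme of the complex, was far dimmer, with values of 2.79, 2.60, 2.36 and 2.80 in males 1 and 2 and females 1 and 2, at the 55.6th percentile. P3h2 (probe set 17329454) read 3.90 and 5.20 in males and 6.05 and 5.22 in females. Its mean of 5.09 lay at the 89.97th percentile, and it exceeded P3h1 on all 4 arrays, by 1.11 to 3.68. The paralogs P3h3 and P3h4 had means of 3.06 and 2.82.

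Colgalt1 and Serpinh1 completed the set. Colgalt1 (probe set 17502280) read 5.10 and 4.58 in males and 4.98 and 4.27 in females, at the 87.5th percentile. It was above its paralog Colgalt2, known mainly from brain and muscle, on all 4 arrays, by 0.12 to 2.30. Serpinh1 (probe set 17493658) read 2.88 and 3.31 in males and 2.86 and 3.28 in females. Its mean of 3.08 ± 0.25 (SD, n = 4) was at the 66.7th percentile, rank 7375. Col1a1, a chain of its main client, read 3.26 ± 0.23 (SD, n = 4) higher, and Hspa5, a general chaperone of the compartment, 2.21 ± 0.44 (SD, n = 4) higher.

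By mean signal the order was P4hb, Ppib, P3h2, Colgalt1, Crtap, P4ha1, Serpinh1, P4ha3 and P4ha2. Of the 8 steps between neighbours, 3 were larger than 1 SD of the difference within arrays and kept their direction on all 4 arrays: Ppib over P3h2 (1.46 ± 1.14), Colgalt1 over Crtap (0.77 ± 0.49) and P4ha1 over Serpinh1 (0.87 ± 0.11; SD, n = 4 each). The other 5 neighbours, P4hb and Ppib, P3h2 and Colgalt1, Crtap and P4ha1, Serpinh1 and P4ha3, and P4ha3 and P4ha2, did not differ beyond their spread. Crtap, for example, was above P4ha1 in 1 array of 4. Over all 36 pairs of the 9 genes, 29 had the same order on every array.

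The genes varied unequally over the arrays. P3h2 had an SD of 0.89, at the 98.4th percentile of all genes, and P4ha3 one of 0.55, at the 92.4th. The other 7 had SDs between 0.15 and 0.38, beside a median of 0.20 over all genes. Colgalt1 was lowest in female 2, P4ha2 also, and P4hb, P4ha1 and P3h2 in male 1.

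Crtap and Ppib kept a nearly constant distance from array to array. The difference between them was 2.59 ± 0.083 (SD, n = 4), the smallest spread of the 36 pairs, whose median SD was 0.47. P4ha1 and Serpinh1 came next at 0.87 ± 0.11, followed by P4hb and Serpinh1 at 3.67 ± 0.18 and P4hb and P4ha1 at 2.80 ± 0.20 (SD, n = 4 each). These pairs were picked from the 36 after their values were seen, so no test of them is given.

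Crtap and Ppib also had the same array order as Col1a2: male 1 highest, then female 2, male 2 and female 1. P3h1, Col1a1 and Col3a1 had that order with male 1 and female 2 exchanged. These orders were noticed on those 6 genes. Among the rest, either order was found in 1 of 7 members (P4ha3), 5 of 10 substrate collagens and 4 of 28 further pathway genes, beside 9.01% of all genes. Female 1 gave the lowest value for 11 of 13 substrate collagens, 4 of 9 members and 7 of 29 further pathway genes, beside 25.1% of all genes. These counts include the 6 genes on which the orders were noticed. Both orders end in female 1, so that part of the counts was fixed by the choice. P4hb and P4ha1 were lowest in male 1 and did not share this order. Tendon markers did not follow the orders uniformly. With Col1a1, itself a substrate, left out of that list, 2 of 6 were lowest in female 1, while Tnmd was lowest in female 2 and Scx in male 2. The log2 of their summed signal was 9.47 and 9.01 in males and 8.85 and 10.28 in females. That sum and the median deviation of the 6 had the array order of P3h1, Col1a1 and Col3a1. Among the 6 genes taken singly, only Fmod had it. The part of tendon cells in the result was not tested.

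**Figure D3:**
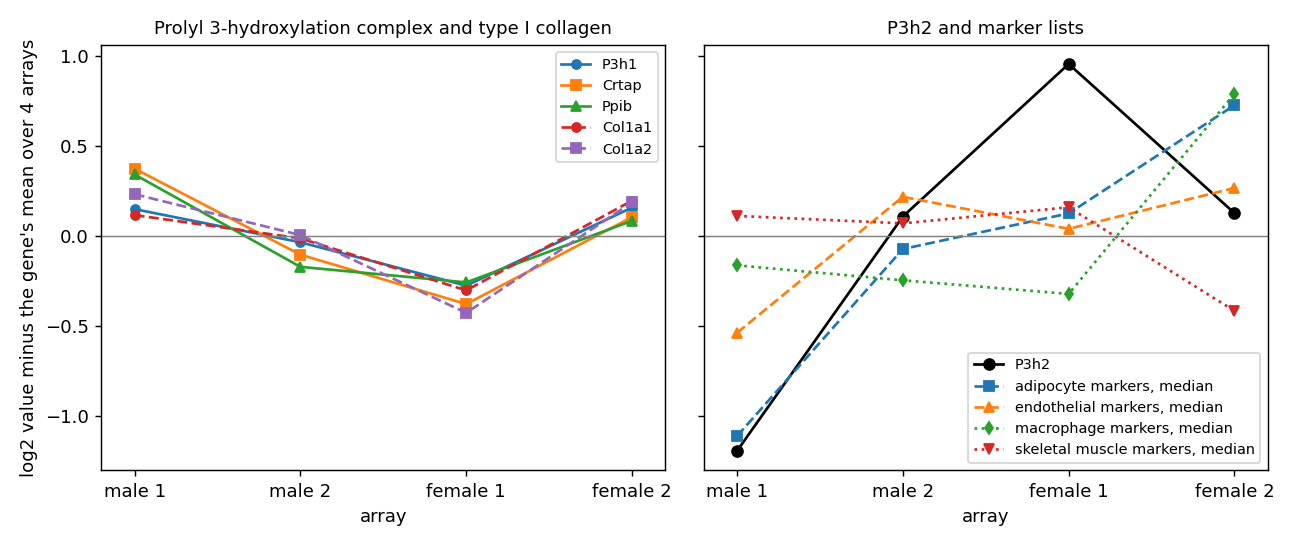
Log2 value minus the gene's mean over 4 arrays (vertical axis) for each array (horizontal axis; lines join values of a gene or list and the arrays have no order). Left, the 3-hydroxylation complex and the type I collagen chains, all lowest in female 1. Right, P3h2 with the median deviation of 4 marker lists. P3h2, adipocyte and endothelial markers are lowest in male 1, but P3h2 is highest in female 1 and both lists in female 2.

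The comparison of females with males asked whether the collagen-folding genes differ between the sexes. Of the 9 genes, 4 had a higher mean in females and 5 a lower one, with a median difference of -0.025 beside -0.0070 over all genes. Limma called 0 of the 9 at an adjusted p under 0.05, and 0% of the 23521 probe sets tested (0 probe sets). Differences over all genes ran from -3.04 to 5.47, so even the widest went uncalled. At an unadjusted p under 0.05 there were again 0 of the 9, beside 4.49% of all probe sets. Every female array exceeded every male array for 1 of the 9 genes, P3h2, beside 15.8% of probe sets. The reverse held for 0 of the 9, beside 17.5%.

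P3h2 had the widest difference. The male mean was 4.55 ± 0.92 (SD, n = 2), against a female mean of 5.63 ± 0.59 (SD, n = 2). The difference was 1.08 (SE 0.54, 95% interval -0.36 to 2.52). Limma gave an adjusted p of 0.969. The groups barely separated, since male 2 at 5.20 and female 2 at 5.22 were nearly equal, and the difference was 0.43 without male 1. In male 1 adipocyte markers were also low, with a median deviation of -1.11, and so were endothelial markers, with -0.54. At the high end they differed from P3h2, which was highest in female 1, 0.96 above its mean. The median deviations there were 0.13 for adipocyte and 0.041 for endothelial markers. Both lists had their highest median deviation in female 2, at 0.73 and 0.27. Of the adipocyte markers 6 of 7 were lowest in male 1, and of the endothelial markers 6 of 6, beside 26.6% of all genes. The exception was Plin1, at 5.19 in male 1 and lowest in female 1 at 4.81. The log2 of the summed adipocyte signal was 10.19 and 10.67 in males and 10.65 and 10.81 in females. Fabp4 alone read 10.06 and 10.50 in males and 10.395 and 10.54 in females, and so made up most of it. Of the 7 markers, 6, among them Adipoq and Plin1, were above the median of all rows on all arrays and Lep was not. For the endothelial list, led by Pecam1 and Cdh5, the sums were 6.94 and 7.79 in males and 7.69 and 8.01 in females, with 6 of 6 above that median. The part of these cells in the P3h2 values was not tested.

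The other 8 genes had differences between -0.39 and 0.15, all with arrays of the sexes overlapping. P4ha3 stood at the low end with -0.39 (SE 0.44, 95% interval -1.56 to 0.78), and its sign turned to 0.13 without male 1. P4ha1 was at 0.15 (SE 0.24, 95% interval -0.50 to 0.81). P4hb, at 0.028 (SE 0.18, 95% interval -0.46 to 0.52), had the tightest interval. P4ha2 and Serpinh1 differed by 0.021 (SE 0.22) and -0.025 (SE 0.25). Crtap, Colgalt1 and Ppib were at -0.27 (SE 0.27), -0.21 (SE 0.33) and -0.17 (SE 0.25). All 9 intervals held 0. They do not show that the sexes were alike, since even the narrowest ran from -0.46 to 0.52.

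**Figure D4:**
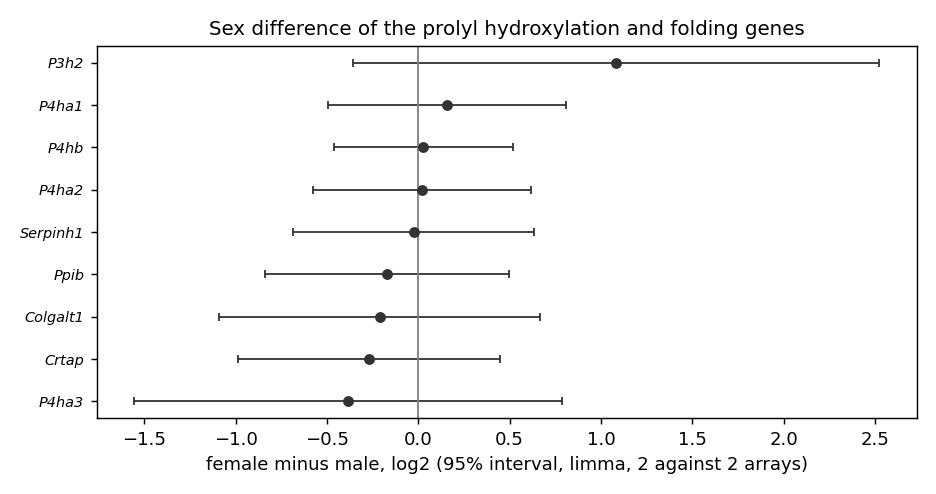
Female minus male difference on the log2 scale (horizontal axis) of the 9 genes (vertical axis), with 95% intervals from limma on 2 against 2 arrays. All 9 intervals cross 0, from P4ha3 at -0.39 to P3h2 at 1.08.

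The rest of the pathway was described from a list of 31 further genes, of which 29 had a value; Plod3 and Pdia4 had only probe sets with several symbols. Their signal covered a wider range than that of the 9, from the 3.85th to the 99.0th percentile with a median of 84.3. Kdelr2, a receptor that returns escaped chaperones to the endoplasmic reticulum, had a mean of 8.46 and the highest rank of the list. Mia2, an export factor named here because it was lowest, was at 1.30, under every array median. The cyclophilin gene Ppic was at 5.66, and the collagen isomerase gene Fkbp14 at 2.84. Of the lysyl hydroxylase genes, which prepare the residues that Colgalt1 glycosylates, Plod2 was at 4.61 and Plod1 at 3.60. Hspa5 had a mean of 5.29.

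Between the sexes 17 of these 29 genes were higher in females and 12 lower, with a median of 0.15 beside -0.0070 over all genes. Limma called 0 of 29, beside 0% of the 23521 probe sets. The median came to -0.030 without female 2 and 0.016 without male 1. At an unadjusted p under 0.05 there were 2, P3h3 and Pdia6, both lower in females, which is 2 of 29 beside 4.49% of all probe sets. P3h3 read 3.34 and 3.22 in males and 2.85 and 2.84 in females, a difference of -0.44 (SE 0.15). Pdia6, a disulfide isomerase gene, read 5.27 and 4.64 in males and 4.35 and 3.86 in females, a difference of -0.85 (SE 0.30). Every female array exceeded every male array for 6 of 29, and the reverse held for 3 of 29, beside 15.8% and 17.5% of probe sets.

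Paralogs and partners of the 9 genes aside, the widest differences of the list after Pdia6 were 0.72 (SE 0.34) for Kdelr2, -0.61 (SE 0.37) for the ion channel gene Tmem38b and -0.46 (SE 0.32) for Sec23a, a coat protein gene of export vesicles. The lectin chaperone gene Canx was at 0.39 (SE 0.31) and Fkbp9 at 0.37 (SE 0.14), with 0.52 for the second probe set of Fkbp9. The paralogs and partners of the 9 genes ranged from -0.44 for P3h3 to 0.51 (SE 0.24) for P3h4, with P3h1 at -0.12, Colgalt2 at 0.45, Plod1 at -0.10, Plod2 at 0.29, Ppic at 0.29, Fkbp14 at 0.068 and Hspa5 at 0.30.

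**Figure D5:**
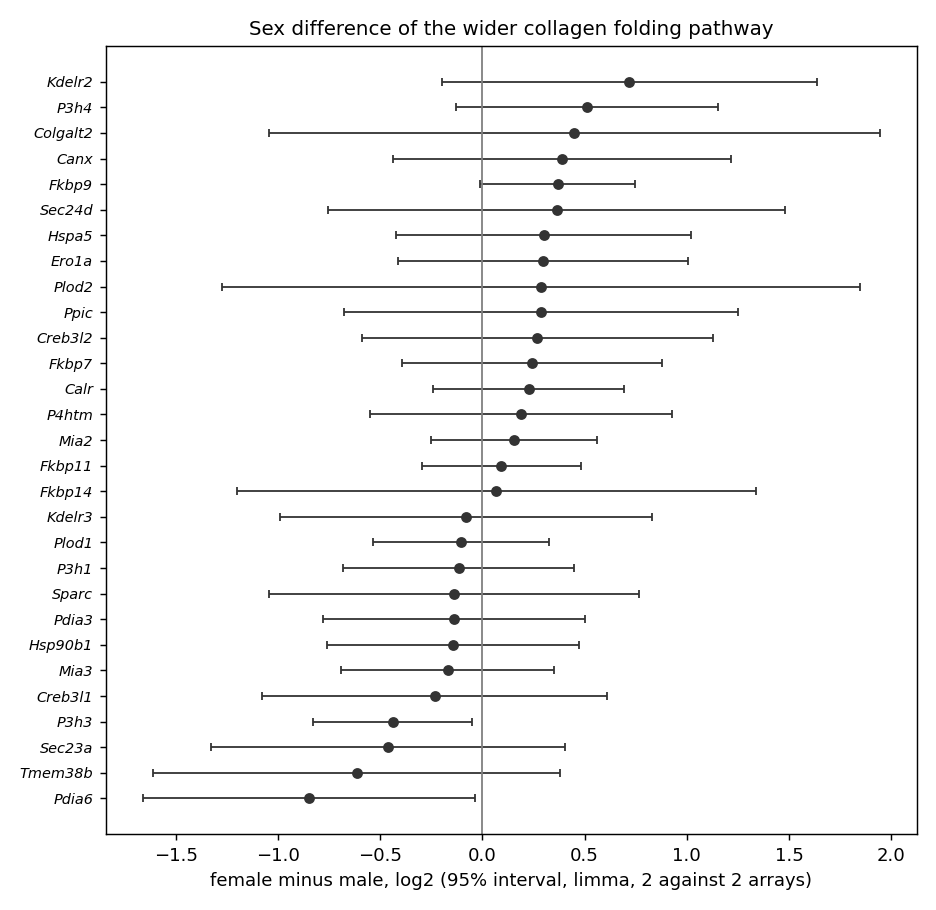
Female minus male difference on the log2 scale (horizontal axis) of the 29 further pathway genes (vertical axis), with 95% intervals from limma on 2 against 2 arrays. The intervals of P3h3 and Pdia6 lie below 0 before adjustment, and the other 27 hold 0.

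The collagens on which these enzymes act were compared in the same way. Of 13 fibrillar, fibril-associated and type VI chains, 5 had a higher mean in females and 8 a lower one, with a median of -0.064. Limma called 0 of the 13, beside 0% of the 23521 probe sets. Col1a1 read 6.46 and 6.33 in males and 6.04 and 6.54 in females, Col1a2 9.22 and 8.995 against 8.56 and 9.18, and Col3a1 6.07 and 5.95 against 5.18 and 6.17. For each of these 3 chains the arrays of the sexes overlapped. At an unadjusted p under 0.05 there was 1 of 13, Col11a1, a minor fibrillar chain, beside 4.49% of all probe sets. It read 2.49 and 2.68 in males and 2.12 and 2.16 in females, a difference of -0.45 (SE 0.15). Both female values lay under the median of all rows on their arrays, 2.27 and 2.28. Every male array exceeded every female array for Col11a1 alone, and the reverse held for Col14a1 alone, at 0.47 (SE 0.24), beside 17.5% and 15.8% of probe sets. A second probe set of Col1a2 had a mean of 5.69, against 8.99 for the first, and both gave their lowest value in female 1.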

How the data were processed

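Gene expression was measured with Mouse Gene ST 2.1 arrays on 4 samples of tendon RNA, 2 per sex. Per the labels' protocols, cDNA was amplified from 12.5 ng of total RNA with a NuGEN kit. The values are log2 expression values deposited by the authors; oligo and RMA are named in the submitters' processing notes, but the sources used here give neither their versions nor an annotation build. In all, 41345 rows were deposited, of which 23521 probe sets had exactly 1 symbol, 1814 several and 16010 none in GEO's platform annotation. No further normalization was applied.

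Percentiles are the share of 22180 genes with a lower mean. Sex differences are female minus male, from limma 3.58.1 (lmFit, eBayes) in R 4.3.3 over 23521 probe sets, with Benjamini-Hochberg adjustment, a threshold of 0.05 and sex as the only term. An exact permutation test of 2 against 2 arrays cannot go below 0.333. With so few arrays precision is low, and the median SE was 0.187. The fit was also run on simulated data with independent normal noise. Those data held no shift shared by the genes of an array, so the run cannot vouch for the intervals given here. The members, gene lists and alternatives were chosen with earlier results of these data known. Named in any case were all members, their paralogs and partners, Col1a1, Col1a2 and Col3a1; of the remaining pathway genes, the 3 widest differences in each direction, and from each marker list described beside a result the first 2 genes. Other names were chosen after their values were seen. The alternatives changed the rows tested or ranked, a filter on dim probe sets, the prior, the normalization, the centring, array weights, a replicate block, the threshold, averaging over probe sets, and each array left out. Figures were drawn with matplotlib 3.10.9.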

Additional observations from a re-analysis of the deposited data

How the results depend on the processing

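The counts of genes called, 0 of 9 and 0 of 29, stayed at 0 under every alternative that kept all arrays. Among these were a threshold of 0.1 and the replicate number as a block. That is not particular to these genes, since limma called 0 of the 23521 probe sets in the main fit. The lowest adjusted p over all genes there was 0.77, so a threshold of 0.1 could call none. The share of all probe sets called under the other alternatives is not given, so these counts do not show a stable result for the lists. The replicate block cannot move a sex difference in this balanced layout, so the median difference of the 9 genes stayed at -0.025 by construction. Replicate numbers are shared by the sexes, but the differences between replicates 1 and 2 correlated at -0.064 between males and females over probe sets, which gives no sign of pairing. Of 108 values of single genes under the alternatives, 13 turned sign, all after quantile normalization once more or with an array left out. The rows tested, the dim filter, the prior, array weights, the block and averaging over probe sets left every difference unchanged. Those settings could not turn a sign here, since each gene has 1 probe set and the layout is balanced. After quantile normalization once more P4ha2 was at -0.010 and P4hb at -0.0058. With each array left out in turn the differences ranged from -0.57 to 0.15 for Colgalt1, -0.081 to 0.39 for P4ha1, -0.23 to 0.27 for P4ha2, -0.90 to 0.13 for P4ha3, -0.15 to 0.20 for P4hb, -0.43 to 0.085 for Ppib and -0.24 to 0.19 for Serpinh1. P3h2 (0.43 to 1.73) and Crtap (-0.51 to -0.031) kept their sign. The lists' medians, whose alternatives were added after the data were seen, ranged from -0.081 to 0.096 for the 9 genes and -0.030 to 0.14 for the wider pathway when each array was left out. The median percentile of the 9 genes was 64.8 when only genes above the median of all rows were ranked, a shorter list by construction, and between 80.0 and 81.9 otherwise. Array weights were nearly equal with 2 arrays per sex, so that alternative altered little.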
